A study of Mus musculus with 12 samples.

Results

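Messenger RNA of 10 genes of fatty acid uptake and binding was measured by RNA sequencing in 4 mouse adipose depots. The genes were taken by symbol from the rows of a table of 23420 genes, and all 10 were found: Lpl, Gpihbp1, Cd36, Slc27a1, Slc27a2, Slc27a3, Slc27a4, Fabp3, Fabp4 and Fabp5. The brown depots were supraclavicular (scBAT) and interscapular (iBAT) brown fat, and the white depots were inguinal subcutaneous (iWAT) and epididymal (eWAT) fat. Each depot had 3 libraries, which makes 6 brown and 6 white libraries. Every group came from untreated male C57BL/6 mice, 8 weeks old, kept at ambient temperature, with no transgene or other allele named. The labels do not say whether the 3 libraries of a depot came from separate mice, so the p-values below measure only the spread between libraries.

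Fat cells take up fatty acids that are released from circulating lipoproteins. Lipoprotein lipase (Lpl) cuts triglyceride at the capillary wall, where the endothelial protein GPIHBP1 carries and anchors it. The membrane receptor CD36 and the fatty acid transport proteins of the Slc27a family bring fatty acids into the cell or trap them there as acyl-CoA. Fatty acid binding proteins (FABPs) then carry them through the cytosol to triglyceride stores or to mitochondria, the site of the fatty acid oxidation that brown fat is known for.

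The libraries held 17159401 to 29262554 counts, and the 10 genes together took 0.635% (iWAT library 3) to 1.47% (eWAT library 2) of them. Values below are in CPM, read counts set against library size, with sizes scaled by the TMM method. Ucp1, the uncoupling protein that defines brown fat, stood at 1559 to 2399 CPM in brown libraries and at 15.7 to 87.7 CPM in white libraries. All 10 fat cell markers on the list were detected in every library, with a summed level of 9584 to 11330 CPM in brown and 5724 to 15950 CPM in white libraries. Some libraries stood apart in the RNA of other cell types. The 10 B cell markers summed to 1769 and 2431 CPM in iWAT libraries 1 and 3, against 101.4 CPM in iWAT library 2 and 7.67 to 47.5 CPM in eWAT. In iWAT libraries 1 and 3 the fat cell markers summed to 9093 and 5724 CPM, against 15950 CPM in iWAT library 2. Intestinal epithelium markers, a list added after the data were seen, summed to 358 CPM in eWAT library 3 and to at most 4.31 CPM in every other library. The 16 fast skeletal muscle markers summed to 583 to 7508 CPM in brown libraries and to 77.7 to 313 CPM in white libraries. In bulk tissue, fewer cells of a type and less RNA per cell cannot be told apart.

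Promoter sequence is shown for the 2 genes with the widest gap between brown and white fat, Fabp3 and Slc27a2, and for Cd36, which is abundant in every depot. RefSeq windows (GRCm38.p6) of 250 bases before an annotated start were on hand for 6 of the 10 genes. They were searched on both strands for AGGTCA, a half-site of nuclear receptors such as the PPAR and RXR pair, and for TGACG, a core of the cyclic AMP response element. AGGTCA or its reverse complement was present in 13.8% of the windows of 27018 genes, and TGACG in 17.9%. Capitals mark a match on either strand. For Fabp3 only the bases before the earliest GENCODE start are given (chr4:130308488-130308594, plus strand). For Slc27a2 a stretch of 30 bases round the match is given (chr2:126552792-126552821, plus strand), because GENCODE places the whole window inside the first exon. The Cd36 window lies at chr5:17835897-17836146 on the minus strand and is written in the direction of the gene. GENCODE places the far end of Cd36 upstream of it, at base 17888801. The window thus comes before a RefSeq start but lies inside the gene as GENCODE spans it.
Fabp3: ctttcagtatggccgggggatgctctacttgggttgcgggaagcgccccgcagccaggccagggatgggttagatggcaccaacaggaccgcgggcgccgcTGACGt
Slc27a2: gcaccacgccttTGACCTtttcaacgtggg
Cd36: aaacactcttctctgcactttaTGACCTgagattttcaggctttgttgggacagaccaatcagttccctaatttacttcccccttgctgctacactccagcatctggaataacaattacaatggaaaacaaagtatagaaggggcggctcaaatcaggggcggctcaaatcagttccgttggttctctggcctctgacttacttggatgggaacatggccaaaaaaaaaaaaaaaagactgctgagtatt
The Fabp3 window held 1 TGACG and no AGGTCA, and the Slc27a2 and Cd36 windows each held 1 AGGTCA and no TGACG. The genes shown were picked by their levels, and no relation between a match and the level of its gene was tested. Among these 3 windows the letters CCAAT, present in 34.5% of all windows, were found in that of Cd36 alone. The letters TATAAA, present in 13% of all windows, were found in none, and no matches overlapped. A match is a run of letters and was not tested as a binding site.

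Across the 10 genes, brown and white fat differed most in Slc27a2 and Fabp3, while Slc27a3 and Slc27a1 were lower in brown fat by smaller amounts and 4 members did not pass. The mean of both brown depots was set against the mean of both white depots with the quasi-likelihood test of edgeR, with p-values adjusted over all 14898 tested genes and a threshold of 0.05. Of the 10 genes, 4 were higher in brown fat (Slc27a2, Fabp3, Fabp4 and Slc27a4) and 2 were lower (Slc27a3 and Slc27a1), while Lpl, Cd36, Gpihbp1 and Fabp5 did not pass. Over all tested genes 31.3% were called higher and 38.1% lower, so the members' share is close to what is common in this comparison. The median log2 difference of the 10 genes was 0.07, beside -0.11 for all tested genes. In size the members were unlike each other: Slc27a2 and Fabp3 differed by log2 values near 6, and every other member by less than 1.3 in either direction.

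**Figure D1:**
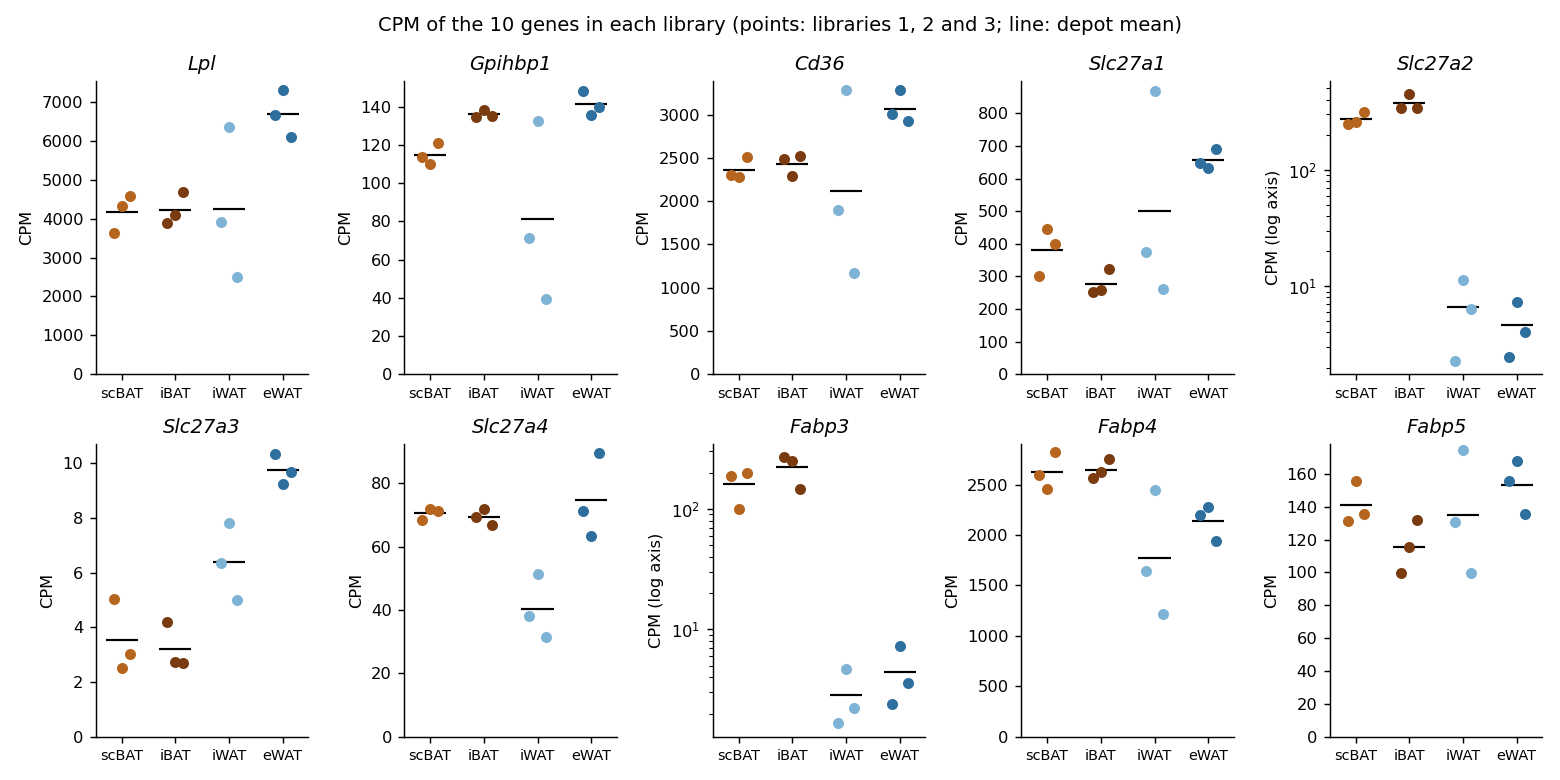
CPM of the 10 genes (vertical axes, logarithmic for Slc27a2 and Fabp3) in the 3 libraries of scBAT, iBAT, iWAT and eWAT, each point a library and each line a depot mean. Slc27a2, Fabp3 and, by a narrow margin, Fabp4 show no overlap between brown and white libraries. How many of all genes separate them was not counted. The value of iWAT library 2 lies above those of iWAT libraries 1 and 3 for all 10 genes.

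Lpl was the member with the most reads in every depot and did not pass in brown against white. It stood at 3643, 4325 and 4584 CPM in scBAT and 3880, 4091 and 4692 CPM in iBAT, against 3915, 6359 and 2494 CPM in iWAT and 6677, 7306 and 6099 CPM in eWAT. The eWAT libraries were all above the brown libraries, and the iWAT libraries spanned the brown range. The log2 difference was -0.34 ± 0.21 (SE, 6 libraries each), with an interval of 2 SE from -0.77 to 0.08 and an edgeR adjusted p of 0.17. The result turned on the iWAT libraries. Without iWAT library 3 the difference was -0.48 (edgeR adjusted p = 0.0155), and without iWAT libraries 1 and 3 it was -0.62. This last fit was chosen after seeing the data and leaves 1 iWAT library, so no p is given for it here or below.

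Gpihbp1, the endothelial partner of Lpl, did not pass either. It ran from 110 to 139 CPM in the 6 brown libraries (median 128) and from 39.6 to 148 CPM in the 6 white libraries (median 134). The depot means were 115 ± 5.49 CPM in scBAT, 136 ± 2.01 in iBAT, 81.2 ± 47.4 in iWAT and 141 ± 6.3 in eWAT (SD, n = 3 each). In brown minus white the log2 difference was 0.23, with an interval from -0.22 to 0.67 (edgeR adjusted p = 0.384). It was 0.51 without iWAT library 2 (edgeR adjusted p = 0.00265) and -0.12 without iWAT libraries 1 and 3. The direction of Gpihbp1 thus depends on which iWAT libraries are read. The 11 endothelial markers moved in both directions, with 3 called higher and 4 called lower in brown fat. Those counts are close to the 31.3% and 38.1% of all tested genes called higher and lower. The 11 markers summed to 1408 to 1840 CPM in brown and 1051 to 1732 CPM in white libraries. Their part in the Gpihbp1 values was not tested.

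A ratio of counts within a library does not depend on how libraries are scaled, and it separated the depots for this pair. The ratio of Lpl to Gpihbp1 counts was 28.7 to 39.2 in brown libraries (median 33.3) and 43.5 to 63 in white libraries (median 50.8). The groups did not overlap: all 6 brown libraries had fewer Lpl reads per Gpihbp1 read. The mean log2 ratio was lower by 0.61 in brown fat, 0.656 of the white ratio (two-sided exact permutation test over the 12 libraries, p = 0.002165, the smallest that 924 regroupings can give, and the same after adjustment over 3 ratios). Libraries were regrouped freely across depots, so this p does not measure the spread between depots of the same kind.

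**Figure D2:**
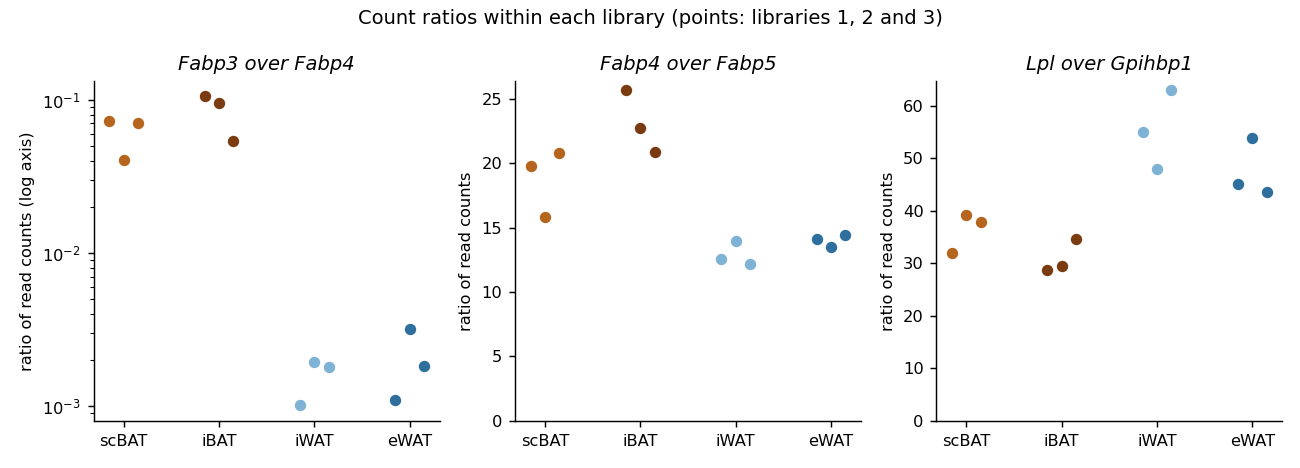
Ratios of read counts between 2 members (vertical axes, logarithmic for Fabp3 over Fabp4) in each library of scBAT, iBAT, iWAT and eWAT. In each of the 3 ratios the brown and the white libraries occupy separate ranges, with brown fat higher for Fabp3 over Fabp4 and for Fabp4 over Fabp5 and lower for Lpl over Gpihbp1.

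Cd36, the main membrane receptor for long-chain fatty acids in fat cells, was abundant everywhere. It had 2302, 2275 and 2509 CPM in scBAT and 2483, 2284 and 2521 CPM in iBAT, against 1891, 3281 and 1165 CPM in iWAT and 3002, 3280 and 2924 CPM in eWAT. The brown libraries kept within a narrow band, the eWAT libraries lay above it, and iWAT lay on both sides. The log2 difference in brown minus white was -0.09 ± 0.21 (SE), with an interval from -0.52 to 0.34 (edgeR adjusted p = 0.727). Without iWAT libraries 1 and 3 it was -0.39, and without iWAT library 2 it was 0.16 (edgeR adjusted p = 0.234).

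The fatty acid transport proteins split in direction. Slc27a2 encodes FATP2, an acyl-CoA synthetase for very long chains best known from liver and kidney. It reached 249, 259 and 311 CPM in scBAT and 338, 445 and 342 CPM in iBAT, against 2.29, 11.4 and 6.35 CPM in iWAT and 2.48, 7.34 and 4.01 CPM in eWAT. The lowest brown library was far above the highest white library. The log2 difference was 5.86 ± 0.40 (SE), a ratio of 58.0 (edgeR adjusted p = 5.7e-07). It passed in all 12 fits without a library and under all 6 other settings set in advance. A noncoding gene on the opposite strand, Gm26697, shares 419 exon bases with Slc27a2, and whether counting used strand is not given in the sources used here.

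Slc27a1, the FATP1 transporter of fat and muscle cells that responds to insulin, went the other way. It stood at 301, 445 and 398 CPM in scBAT and 252, 258 and 324 CPM in iBAT, against 375, 868 and 262 CPM in iWAT and 646, 631 and 690 CPM in eWAT. All eWAT libraries exceeded all brown libraries, while iWAT libraries 1 and 3 fell within the brown range. It was lower in brown fat, with a log2 difference of -0.82 ± 0.26 (SE, edgeR adjusted p = 0.0147). Without iWAT libraries 1 and 3 the difference was -1.20, and without iWAT library 2 it was -0.48 (edgeR adjusted p = 0.00467).

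Slc27a3, which encodes an acyl-CoA synthetase of the same family, had few reads, with 42 to 81 counts in brown and 152 to 309 counts in white libraries. Its levels were 2.52 to 5.03 CPM in brown (median 2.89) and 5 to 10.3 CPM in white libraries (median 8.54). The highest brown library, scBAT 1, only just passed the lowest white library, iWAT 3. It was lower in brown fat by a log2 difference of -1.23 ± 0.20 (SE, edgeR adjusted p = 0.000326). The call held in all 12 fits without a library and under all 6 other settings set in advance. Slc27a2 and Slc27a3 thus differed between brown and white fat in opposite directions within 1 gene family.

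Slc27a4, the broadly expressed FATP4, was lowest in iWAT. It had 68.3, 71.9 and 71.3 CPM in scBAT and 69.4, 71.9 and 67 CPM in iBAT, against 38, 51.5 and 31.6 CPM in iWAT and 71.3, 63.3 and 89.6 CPM in eWAT. The brown libraries lay within the eWAT range and above every iWAT library. The highest value was in eWAT library 3, the library with intestinal RNA, and the part of that RNA in the value was not tested. The brown minus white log2 difference was 0.35 ± 0.12 (SE, edgeR adjusted p = 0.0241). This call was lost with upper quartile scaling (0.28, adjusted p = 0.0796) and on leaving out iBAT library 2, iWAT library 1, eWAT library 1 or eWAT library 2 (edgeR adjusted p 0.0509, 0.0542, 0.0527 and 0.0599). Without iWAT libraries 1 and 3 the difference was 0.19.

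Among the binding proteins, Fabp3, known as the heart and muscle FABP and also present in brown fat, carried the contrast. It had 188, 99.4 and 199 CPM in scBAT and 269, 248 and 147 CPM in iBAT, against 1.65, 4.71 and 2.21 CPM in iWAT and 2.41, 7.22 and 3.57 CPM in eWAT. The white values rest on 47 to 182 counts a library. The log2 difference was 5.75 ± 0.39 (SE), a ratio of 54.0 (edgeR adjusted p = 4.99e-07). It passed in all 12 fits without a library and under all 6 other settings set in advance. Muscle markers also differed: all 16 fast skeletal muscle markers were higher in brown fat, beside 31.3% of all tested genes, with the sums given above. Of the 10 slow and cardiac muscle markers 8 were tested, 5 of them higher and 1 lower, beside 31.3% and 38.1% of all tested genes. The 10 summed to 7.09 to 39.1 CPM in brown and 2.33 to 6.62 CPM in white libraries. Myh7, Myl2 and Myl3, among those higher, passed the filter on low counts only through brown libraries. Tnni3, the lower one, passed it only through white libraries. That fixes the direction of these genes, so their calls are a description. The part of muscle RNA in the Fabp3 values was not tested. Fabp3 shares 81 exon bases with Zcchc17 on the opposite strand, which had 8689 counts over the 12 libraries, and the processed pseudogene Fabp3-ps1 matches it at 99.3% over 402 bases.

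Fabp4 (aP2), the FABP that marks fat cells, differed little. It had 2597, 2459 and 2825 CPM in scBAT and 2566, 2629 and 2751 CPM in iBAT, against 1642, 2445 and 1218 CPM in iWAT and 2196, 2278 and 1946 CPM in eWAT. All 6 brown libraries were above all 6 white libraries, by a narrow margin over iWAT library 2. The log2 difference was 0.44 ± 0.17 (SE, edgeR adjusted p = 0.0341). The call was fragile: it held without iWAT library 2 (0.60, adjusted p = 0.000105) or iWAT library 3, and with any of the other 10 libraries left out the edgeR adjusted p was 0.053 to 0.08. Upper quartile scaling gave 0.37 (adjusted p = 0.0834), and testing without the filter on low counts gave 0.43 (adjusted p = 0.052). Without iWAT libraries 1 and 3 the difference was 0.22, and with eWAT library 3 also left out it was 0.18.

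Fabp5, the epidermal FABP also made by fat cells and macrophages, ranged over 99.7 to 156 CPM in brown (median 131.5) and 99.95 to 175 CPM in white libraries (median 145.6). The groups overlapped along most of their range. The log2 difference was -0.17, with an interval from -0.44 to 0.09 (edgeR adjusted p = 0.27). It was -0.35 without iWAT libraries 1 and 3. Macrophage markers were lower in brown fat for 10 of 11 genes, beside 38.1% of all tested genes. They summed to 187 to 401 CPM in brown and 725 to 1137 CPM in white libraries, and their part in the Fabp5 values was not tested. There are 5 processed pseudogenes that match Fabp5 at 93.6% to 98.3% over 336 to 409 bases, so its count is uncertain.

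Within libraries the proportions of the binding proteins differed between brown and white fat. The ratio of Fabp3 to Fabp4 counts was 0.0404 to 0.105 in brown libraries (median 0.0714) and 0.00101 to 0.00317 in white libraries (median 0.00182), a 41.2-fold higher ratio in brown fat. The ratio of Fabp4 to Fabp5 counts was 15.8 to 25.7 in brown libraries (median 20.8) and 12.2 to 14.4 in white libraries (median 13.8), 1.54-fold higher in brown fat. Neither ratio overlapped between the groups (two-sided exact permutation tests, p = 0.002165 each, and the same after adjustment over 3 ratios). Here too libraries were regrouped freely across depots, so the spread between depots of the same kind is not measured. For Fabp3 over Fabp4 the separation follows from the Fabp3 values above, so this p adds nothing to them. How many pairs of all genes separate brown from white libraries was not counted, for these ratios or for Lpl over Gpihbp1. Within a single pair of depots, 3 libraries against 3 cannot give a p under 0.1, so no depot pair was tested.

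**Figure D3:**
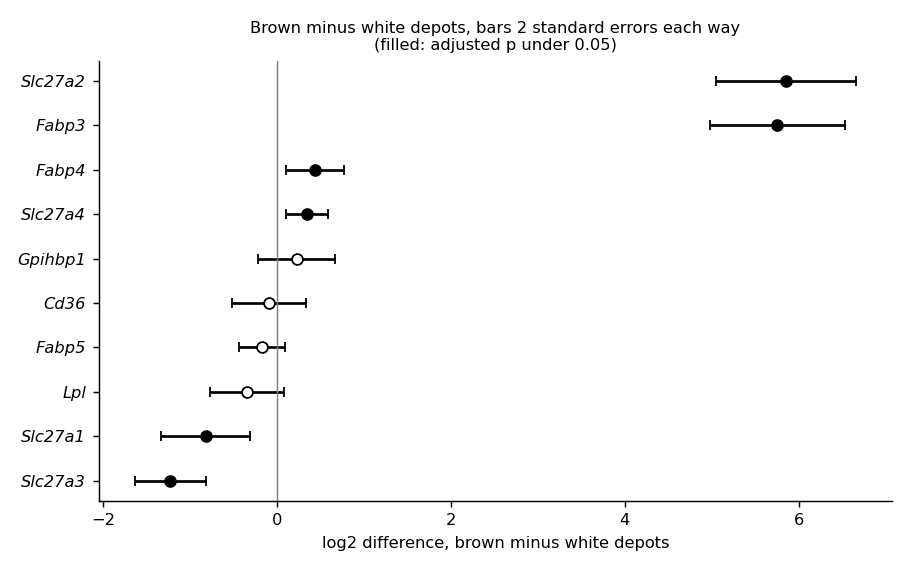
Log2 difference of each member in the mean of the brown depots minus the mean of the white depots (horizontal axis), with bars of 2 standard errors each way and filled points for an edgeR adjusted p under 0.05. Slc27a2 (5.86) and Fabp3 (5.75) stand far to the right, and the other 8 members lie between -1.23 and 0.44.

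To compare members with each other, depot mean CPM was divided by the length of the principal GENCODE transcript of each gene. On this scale Fabp4 led in every depot, with 54.6% of the summed level of the 10 genes in scBAT, 53.8% in iBAT, 48.6% in iWAT and 43.4% in eWAT. Lpl came next, with 18.9% in scBAT and 18.7% in iBAT against 25.5% in iWAT and 29.5% in eWAT, followed by Cd36 in each depot. Fabp3 followed these 3 in both brown depots, at 3.67% in scBAT and 4.9% in iBAT, and ranked 8 of 10 in both white depots, at 0.0854% in iWAT and 0.0971% in eWAT. Slc27a2 held 1.74% in scBAT and 2.34% in iBAT and was last in both white depots (0.0564% in iWAT and 0.0287% in eWAT). The lead of Fabp4 depends on the length used: divided by all annotated exon bases, which for Fabp4 include a retained intron, Cd36 came first in every depot.

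**Figure D4:**
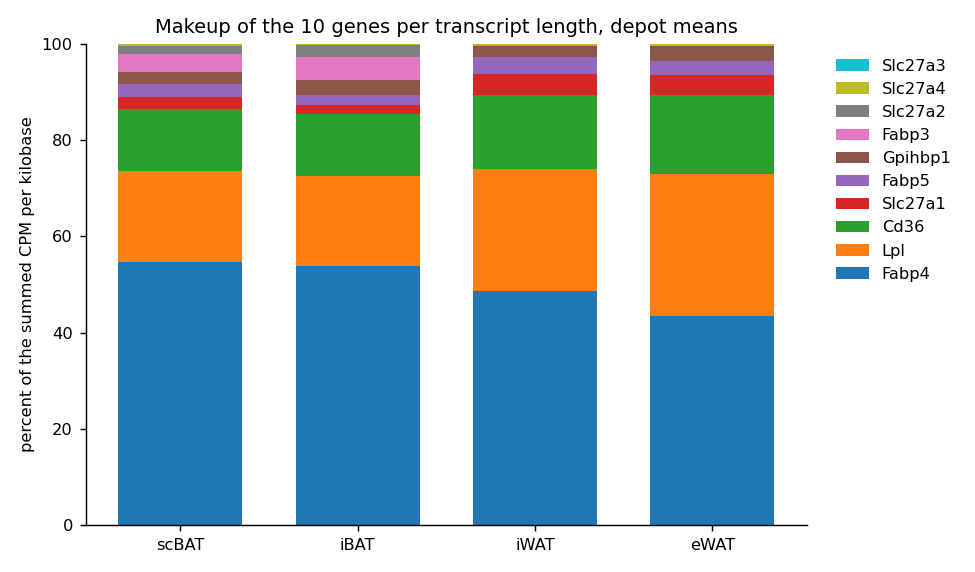
Share of each member in the summed CPM per kilobase of transcript (vertical axis, percent) in scBAT, iBAT, iWAT and eWAT, from depot means. Fabp4, Lpl and Cd36 fill most of each bar, and Fabp3 and Slc27a2 are visible only in the brown depots.

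No member passed the test between the brown depots. In scBAT minus iBAT none of the 10 genes passed the edgeR test, none had an unadjusted p under 0.05, and neither DESeq2 nor limma-voom called any. Over all tested genes 0.235% were called higher and 0.094% lower, with 855 at an unadjusted p under 0.05. The differences of Slc27a2 (-0.46 on the log2 scale, interval -1.37 to 0.46), Slc27a1 (0.46, interval -0.26 to 1.18) and Fabp3 (-0.45, interval -1.33 to 0.42) were the widest, and these intervals leave room for changes of more than 2-fold in Slc27a2, Slc27a1 and Fabp3. For Fabp4 and Lpl the differences were -0.01, with intervals from -0.48 to 0.45 and from -0.61 to 0.59. The scBAT and iBAT libraries did not overlap for Slc27a2, with the values given above. Nor did they for Gpihbp1, which had 114, 110 and 121 CPM in scBAT and 135, 139 and 136 CPM in iBAT. Its log2 difference was -0.24, with an interval from -0.88 to 0.39. The unadjusted edgeR p was 0.34 for Slc27a2 and 0.45 for Gpihbp1. How many of all tested genes separate the scBAT from the iBAT libraries was not counted. The separation of these genes is therefore only a description and is no evidence of a difference between the brown depots.

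Between the white depots, 9 of the 10 members had lower values in iWAT than in eWAT, but only Slc27a4 passed. None was called higher and 1 lower, where 17.7% of all tested genes were called higher and 11% lower. Slc27a4 had 40.4 ± 10.2 CPM in iWAT and 74.7 ± 13.5 CPM in eWAT (SD, n = 3 each), a log2 difference of -0.89 ± 0.17 (SE, edgeR adjusted p = 0.00777). Fitted on iWAT and eWAT alone the difference was -0.88 with an edgeR adjusted p of 0.107, and without iWAT libraries 1 and 3 it was -0.52. The result for the other members hung on iWAT library 2: without it 8 members were called lower in iWAT, among them Gpihbp1 (-1.35), Lpl (-1.06), Slc27a1 (-1.04) and Cd36 (-1.001), where 32.5% of all genes tested in that fit were called lower. With only that iWAT library left, the differences of Fabp3, Fabp4, Fabp5, Slc27a1 and Cd36 changed sign. B cell and fat cell markers divide the iWAT libraries in the same way, and their part was not tested.

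Each brown depot was also set against each white depot in the same edgeR fit. Slc27a2 and Fabp3 were higher and Slc27a3 was lower in all 4 pairs. The Slc27a3 call was lost in scBAT minus iWAT without scBAT library 2, scBAT library 3 or iWAT library 1 (edgeR adjusted p 0.1, 0.0883 and 0.0552), and in iBAT minus iWAT without iBAT library 2 or 3 (edgeR adjusted p 0.0547 and 0.0534). For scBAT minus iWAT, 3 members were called higher and 1 lower, beside 28.1% and 33.5% of all tested genes. The log2 differences were 5.36 for Slc27a2, 5.85 for Fabp3, 0.81 for Slc27a4 and -0.86 for Slc27a3. For iBAT minus iWAT, 4 were called higher and 1 lower, beside 27.9% and 35.2% of all genes. They were Slc27a2 (5.82), Fabp3 (6.30), Slc27a4 (0.78), Fabp4 (0.58) and Slc27a3 (-0.99), of which Fabp4 had an edgeR adjusted p of 0.0485 and was lost in 11 of 12 fits without a library. Without iWAT libraries 1 and 3 the Fabp4 difference in iBAT minus iWAT was 0.12.

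Against eWAT the list was shorter. For scBAT minus eWAT, 2 members were called higher and 1 lower, beside 26% and 25.8% of all tested genes: Slc27a2 (5.89), Fabp3 (5.21) and Slc27a3 (-1.47). For iBAT minus eWAT, 2 were called higher and 2 lower, beside 26.2% and 27.5% of all genes. Slc27a2 differed by 6.35, Fabp3 by 5.66, Slc27a3 by -1.59 and Slc27a1 by -1.24, and the Slc27a1 call was lost without iBAT library 1 or 2 (edgeR adjusted p 0.0558 and 0.0556). Comparisons that share a depot share its libraries, so the 4 pairs are not independent. A fit on only the depots compared called 5 members lower in each brown depot than in eWAT, where 35.2% of all genes tested were called lower in scBAT minus eWAT and 36.4% in iBAT minus eWAT.

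Ordered by mean level, neighbouring depots differed beyond their spread in 4 of 30 steps over the 10 genes. The step from scBAT (162 ± 54.6 CPM) to eWAT (4.4 ± 2.51 CPM) passed for Fabp3. For Slc27a2 the step from scBAT (273 ± 33.3 CPM) to iWAT (6.68 ± 4.57 CPM) passed. The others were the step in Slc27a3 between scBAT (3.53 CPM) and iWAT (6.4 CPM) and the step in Slc27a4 between iBAT (69.4 CPM) and iWAT (40.4 CPM). Levels of Fabp4, Fabp5, Slc27a1, Cd36, Lpl and Gpihbp1 had no such step. How many such steps pass over all tested genes was not counted, so these counts are only a description.

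Other genes of the pathway were read from 7 lists. Over all tested genes 31.3% were called higher and 38.1% lower in brown minus white, and the list counts stand beside these shares. All 7 tested acyl-CoA synthetase and acyl-CoA binding genes were higher in brown fat, with a median log2 difference of 0.65 beside -0.11 for all genes. A fit without iWAT libraries 1 and 3, which leaves 1 iWAT library, did not call all of them. These enzymes activate fatty acids for oxidation or storage. Acsl5 had 319 to 485 CPM in brown and 92.7 to 139 CPM in white libraries (1.88 ± 0.12, edgeR adjusted p = 3.31e-07), and Acsl3 had 41.2 to 61.2 CPM in brown and 17.7 to 24.7 CPM in white libraries (1.40 ± 0.13, edgeR adjusted p = 3.89e-06). The acyl-CoA binding proteins Dbi (0.90) and Acbd5 (0.57) were also higher.

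Genes that act on Lpl moved in both directions, with 3 of 8 tested higher and 1 lower in brown fat. The share called higher is close to the 31.3% of all tested genes, and 38.1% of all were called lower. Lmf1, the factor that folds the lipase in the cell, had 51.5 to 62.8 CPM in brown and 19.3 to 34.5 CPM in white libraries (log2 difference 1.10 ± 0.10, edgeR adjusted p = 3.77e-06). Apoc1 (1.93) and Gm6484 (2.70), listed by RefSeq as a synonym of Angptl8, were higher as well, and both proteins are known as inhibitors of the lipase. Apoc2, its activating cofactor, was lower (-1.91) at 0.367 to 0.825 CPM in brown and 1.2 to 4.61 CPM in white libraries. Of 5 tested lipoprotein receptors and vascular lipases, 2 were higher and 1 lower, beside the same 31.3% and 38.1% of all tested genes. The endothelial lipase gene Lipg (1.99) and the receptor gene Vldlr (1.97) were higher. Lrp1 was lower (-0.83), while Scarb1 did not pass (-0.23).

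Genes of caveolae, membrane pits linked to fatty acid uptake by CD36, moved in both directions. Of 7 tested, 4 were lower and 2 higher in brown fat, beside 38.1% and 31.3% of all tested genes. Their median log2 difference was -0.57. Ehd2 (-0.998) and Sdpr (-0.61), structural proteins of the caveolar coat and neck, were among the 4. Both that were higher, Zdhhc5 (0.39) and Zdhhc4 (0.29), encode enzymes that palmitoylate CD36. Against eWAT, 5 of the 7 were lower in scBAT and 5 in iBAT, beside 25.8% and 27.5% of all tested genes. Against iWAT 0 were lower and 2 were higher in each brown depot. Of all tested genes, 33.5% were lower and 28.1% higher in scBAT minus iWAT, and 35.2% and 27.9% in iBAT minus iWAT. Among PPAR and RXR nuclear receptors, 4 of 6 were higher and 1 lower: Ppara, the receptor that drives fatty acid oxidation genes, had 655 to 871 CPM in brown and 21.2 to 72.7 CPM in white libraries (4.30 ± 0.30, edgeR adjusted p = 6.53e-07). Its partners Rxrg (1.45) and Rxrb (0.96) were higher and Rxra was lower (-0.77).

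The VEGF-B genes, linked in mice to fatty acid transport across endothelium, were higher in brown fat in 3 of 3 cases: Vegfb (0.93), its receptor Flt1 (0.88) and the co-receptor Nrp1 (0.82). Against iWAT, 3 of 3 were higher in both scBAT and iBAT, beside 28.1% and 27.9% of all tested genes. Against eWAT it was 1 of 3 in both, beside 26% and 26.2%. Of the 8 remaining FABP and transport protein genes, 3 had enough reads to test. Of these, Slc27a6 and Fabp1 passed the filter on low counts only through white libraries, which fixes their direction, so their values are a description. Slc27a6 had 0.19 to 0.382 CPM in brown and 1.23 to 4.01 CPM in white libraries. Fabp1, the liver FABP, had 1 count over the 6 brown libraries and stood out in iWAT library 1 (47 counts), iWAT library 3 (89 counts) and eWAT library 3 (78 counts), the same libraries that carry lymphocyte or intestinal RNA. Fabp12 did not pass (0.15).

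**Figure D5:**
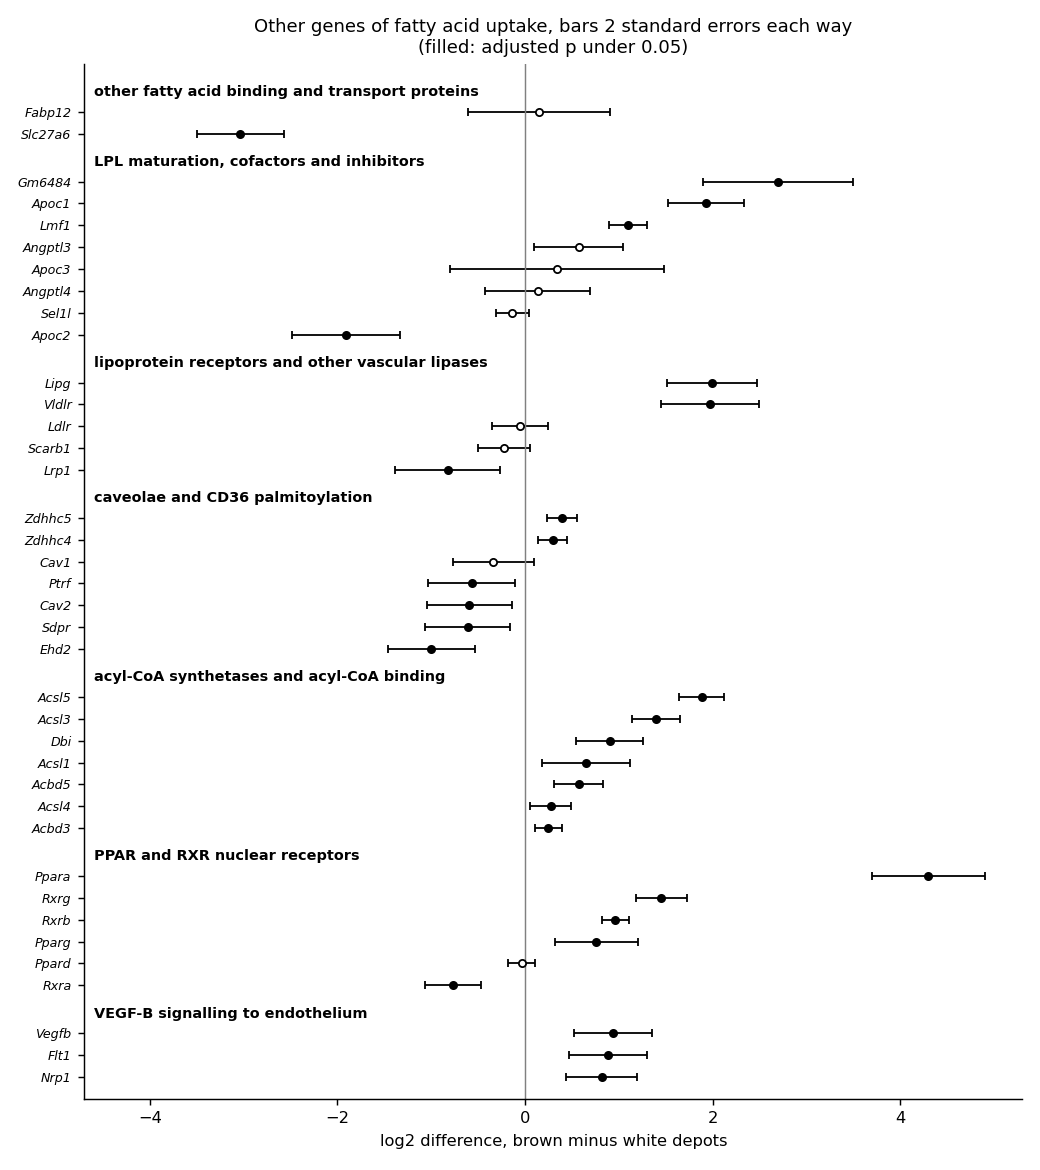
Log2 difference of the other pathway genes in brown minus white depots (horizontal axis) with bars of 2 standard errors each way, grouped by list, filled for an edgeR adjusted p under 0.05. All 7 acyl-CoA genes lie to the right of 0, Ppara is farthest right (4.30), and Fabp1 is left out because brown fat has 1 count. The filled point of Slc27a6 is a description, because the gene passed the filter on low counts only through white libraries.

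The members differed in which genes they resembled over the 12 libraries. Among 10747 genes, likeness was the Pearson correlation of log2 CPM, given as a description because all points share the 4 depots and the composition of the libraries. Fabp3 was most like Tarsl2 (0.996), Ucp1 (0.995) and Akr1b10 (0.995), and Slc27a2 was most like Aspg (0.998), Pank1 (0.995) and Atf2 (0.995). Fabp4 was most like Mccc2 (0.991), Mccc1 (0.99) and Ivd (0.987).

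Cd36 was nearest to Cped1 (0.988), Acvr1c (0.981) and Mgll (0.981), and Lpl to Bcat2 (0.991), St13 (0.989) and Gstz1 (0.983). Slc27a1 was nearest to Cpq (0.982), Enpp5 (0.978) and Stt3b (0.976), and Gpihbp1 to Fam76a (0.988), Dusp3 (0.987) and Sparcl1 (0.987). Slc27a3 was nearest to Svil (0.983), Erlin1 (0.983) and Nuak1 (0.982), and Slc27a4 to Xpnpep1 (0.965), Fam160a1 (0.96) and Rbpms (0.958). Fabp5 had the weakest nearest genes, Sowahc (0.922), Slc1a3 (0.918) and Steap4 (0.918).

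Among the 45 pairs of members, Fabp3 and Slc27a2 were most alike (0.986), followed by Cd36 with Lpl (0.922) and with Gpihbp1 (0.918). The most opposite pair was Slc27a2 and Slc27a3 (-0.864). Fabp3 had almost no linear relation to Cd36 (0.0836), nor had Slc27a2 (-0.00183).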

How the data were processed

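The deposited table holds raw read counts per gene symbol in 12 libraries, which the authors did not normalize. Per the labels' protocols, total RNA from a kit for fatty and fibrous tissue was made into TruSeq libraries. Per the submitters' processing notes, the genome build was mm10 and the tools included HTSeq 0.6.1p1 and STAR 2.4.2a. The gene annotation, strand setting and handling of reads with several matches are not given in the sources used here. Genes passing filterByExpr on depot (14898) were fitted in edgeR 4.0.16 (R 4.3.3) with TMM factors, robust quasi-likelihood and a mean per depot over all 12 libraries, with Benjamini-Hochberg adjustment. Alternatives were DESeq2 1.42.0, limma-voom 3.58.1, other scalings, no filter, a replicate block, fits on the depots compared, and leaving out libraries. Ratios were tested by exact permutation. Up to 4 genes of each pathway list were named by the smallest adjusted p, and 3 like genes per member by Pearson correlation of log2 CPM (prior count 2) among named genes with at least 10 CPM in a depot. Positions and lengths come from GENCODE on GRCm38. The members and lists were chosen with earlier results of these data known. Depth ran from 17159401 to 19890543 counts in brown and from 21670017 to 29262554 counts in white libraries, without overlap. The TMM factors did not overlap either, at 0.8724 to 0.9221 in brown and 1.049 to 1.194 in white libraries. Effects of depth or scaling thus cannot be told apart from those of brown against white fat. The labels name no batch.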

Additional observations from a re-analysis of the deposited data

How the results depend on the processing

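In brown minus white, Fabp3, Slc27a2, Slc27a1 and Slc27a3 passed in all 12 fits without a library and all 6 other settings set in advance. Slc27a4 passed in 8 of the 12 and 5 of the 6, and Fabp4 in 2 of the 12 and 4 of the 6. Upper quartile scaling left 2 members called higher, beside 4228 of all 14898 genes (4657 with TMM). It put the median of all tested genes at -0.17 on the log2 scale, beside -0.11 with TMM. Settings without iWAT libraries 1 and 3, and without these and eWAT library 3, were chosen after seeing the data. Each leaves 1 iWAT library, so only the sizes of differences from them are given below. Fits on the depots compared called 0 members lower in iWAT minus eWAT, beside 162 of 14676 genes tested. In scBAT minus iWAT they called 0, beside 3482 of 14331. They called 5 in iBAT minus eWAT, beside 36.4% of all genes, and 5 in scBAT minus eWAT, beside 35.2%. DESeq2 called 3 lower in iWAT minus eWAT, 2 in iBAT minus iWAT and 2 in scBAT minus eWAT. Over all 14898 genes it called 2492, 5251 and 4144 lower, where the main edgeR fit called 1646, 5237 and 3851. In iWAT minus eWAT limma-voom called 2 members lower, beside 1978 of all genes. The cause of the changes between settings was not tested.

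With each library left out in turn, members called higher in brown minus white numbered 2 to 5, and in scBAT minus iWAT 3 to 6. Members called lower numbered 1 to 8 in iWAT minus eWAT, 0 to 2 in iBAT minus iWAT, 1 to 4 in iBAT minus eWAT, 0 to 1 in scBAT minus iWAT and 1 to 3 in scBAT minus eWAT. The upper ends of 5, 6 and 8 came without iWAT library 2, those of 4 and 3 without iWAT library 2 or 3, and that of 2 without iWAT library 3. Calls over all genes moved too. Without iWAT library 2, 5291 of 15366 genes were called higher in brown minus white and 5157 in scBAT minus iWAT. In iWAT minus eWAT 4997 were called lower. Without iWAT library 3, 4601 of 15024 were called lower in iBAT minus eWAT, 4395 in scBAT minus eWAT and 4890 in iBAT minus iWAT. In the main fit these were 4657, 4192, 1646, 4097, 3851 and 5237 of 14898. The lower end of 2 in brown minus white came without iBAT library 2, iWAT library 1, eWAT library 1 or eWAT library 2. Over all genes these fits called 4468, 4365, 4487 and 4500 higher, in that order. Log2 differences that changed sign were small and had not passed. In brown minus white, Cd36 ran between -0.23 and 0.16. In scBAT minus iBAT, Fabp4 ran between -0.067 and 0.033, Slc27a3 between -0.21 and 0.37, Slc27a4 between -0.0030 and 0.047 and Lpl between -0.083 and 0.078. In iWAT minus eWAT, Slc27a2 ran between -0.073 and 1.012.

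Without iWAT libraries 1 and 3, signs also changed for Gpihbp1 in brown minus white (-0.12, and -0.13 with eWAT library 3 left out too). In iWAT minus eWAT they changed for Fabp3 (0.14), Fabp4 (0.21, and 0.14 without eWAT library 3), Fabp5 (0.21 and 0.12), Slc27a1 (0.43 and 0.45) and Cd36 (0.12 and 0.075). Here a single iWAT library is assumed to vary like the other depots.

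No pairing of libraries by replicate number was visible. The correlation of deviations between libraries of the same number in different depots ran from -0.184 to 0.234, and 5 of 18 were above 0.1. Between libraries of different numbers it ran from -0.27 to 0.337. Such correlations cannot exclude that libraries of the same number share a mouse. A replicate block kept 4 members called higher and 2 lower in brown minus white. With the brown minus white difference taken within each replicate number and the signs of the 3 differences flipped, the log2 ratios of Fabp3 over Fabp4 (5.36), Fabp4 over Fabp5 (0.63) and Lpl over Gpihbp1 (-0.61) had p = 0.25, the smallest that an exact test of 3 sign flips can give. Intervals cover the spread between libraries only, and in white fat Fabp3 rests on at most 182 counts a library and Slc27a2 on at most 259.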

Other observations

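Intestinal members of the FABP family marked a single white library. Fabp2, the intestinal FABP, had 0 counts in all 6 brown libraries, against 5034 counts (158 CPM) in eWAT library 3 and at most 7 counts in any other white library. Fabp6, the bile acid binding protein of the ileum, had 0 counts in all 6 brown libraries, against 2476 counts (77.6 CPM) in eWAT library 3 and at most 1 count in any other white library. A count of 0 over the brown libraries allows up to 0.0308 CPM, counting error only.

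White libraries also differed among themselves in the members that are high in brown fat. Among white libraries, eWAT library 2 had the most Fabp3 (7.22 CPM) and the most Ucp1 (87.7 CPM), and iWAT library 2 had the most Slc27a2 (11.4 CPM) and the most Cidea (229 CPM), a lipid droplet gene of brown fat. The 7 salivary gland markers summed to 279 to 8783 CPM in brown libraries, against 2192 CPM in eWAT library 2 and at most 108 CPM in the other white libraries. Whether the Fabp3 and Ucp1 of that library belong with this foreign RNA was not tested.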
